A study of Mus musculus with 12 samples.

Results

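The genes described here are the autosomal long noncoding RNA (lncRNA) genes with measurable transcript in mouse liver. Members were all rows of the deposited table with the biotype lincRNA, lncRNA, antisense or processed_transcript, on chromosomes 1 to 19, with a mean of at least 1 FPKM over the 12 libraries (FPKM is read fragments scaled by gene length and by library size, a level per length). The rule left 426 genes of 54532 in the table: 182 lincRNA, 167 antisense and 77 processed_transcript. On autosomes the table held 8438 rows of these biotypes at any level.

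All libraries came from whole liver of Apoe knockout mice, which lack apolipoprotein E and are used as a model of high blood cholesterol. In the Rspo2-AAV group (6 libraries, numbered 1, 2, 4, 5, 6 and 7) an adeno-associated virus (AAV) delivered Rspo2, and in the Control group (6 libraries, numbered 1 to 6) the virus carried Gfp. The deletion of Apoe and the exposure to a virus are therefore shared by both groups. Rspo2 encodes R-spondin 2, which is secreted and raises Wnt signalling, because it holds back ligases that remove Wnt receptors. The promoter of the vectors, the dose, the time after injection, and the age, sex and diet of the mice are not given in the sources used here. Whether each library is a separate animal is not stated either, and the p-values below measure only the spread between these samples. RNA was selected by its poly-A tail, so noncoding RNAs without a tail are poorly sampled.

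A lncRNA is a transcript with no long open reading frame, often spliced and capped like a messenger RNA. Many are transcribed from the opposite strand of a coding gene (antisense) or start beside a coding gene's start and run away from it (divergent). A few have known roles: Neat1 builds nuclear paraspeckles, Malat1 sits in nuclear speckles, and snoRNA host genes carry the small RNAs that guide modification of ribosomal RNA in their introns. For most of the members below, named only by a number in the mouse catalogue, no function is given here.

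Libraries held 14295644 to 22195576 recovered reads. Rspo2 averaged 309.5 ± 201.3 FPKM (SD, n = 6; 49.9 to 572.7) in Rspo2-AAV libraries and was listed at 0 in all 6 Control libraries (exact two-sided permutation p = 0.00216, the smallest that 924 splits allow). The 5 hepatocyte markers summed to 19225.4 to 46039.2 FPKM in Rspo2-AAV and 25286.7 to 46086.4 FPKM in Control libraries. Some libraries stood apart. Xist, which coats the inactive X chromosome, stood at 28.0 FPKM in Rspo2-AAV 1, 5.57 in Rspo2-AAV 2 and 42.0 in Control 3, and at most 0.0186 FPKM elsewhere, so these 3 libraries differ from the rest of their groups. Scd1, a fatty acid desaturase, ran from 330.9 to 541.4 FPKM in numbers 1 to 3 and from 2456.9 to 3661.5 FPKM in numbers 4 to 7 of both groups. Pancreatic acinar markers took 5.37%, 0.484%, 0.0559% and 0.00593% of reads in Rspo2-AAV 4, 5, 6 and 7. They took 0.000996% in Rspo2-AAV 1, 0.00161% in Rspo2-AAV 2 and at most 0.0034% in Control libraries. Mitochondrially encoded genes took 10.5% in Rspo2-AAV 2 against 3.53% to 5.89% elsewhere. Among the other marker lists, 3 of 5 Kupffer and macrophage genes were lower (summed level 64.2 to 136.1 FPKM in Rspo2-AAV, 144.1 to 291.1 in Control), 3 of 4 stellate genes were lower (16.6 to 31.0 FPKM in Rspo2-AAV, 40.5 to 55.7 in Control), and 2 of 3 erythroid genes were higher (207.2 to 1199.8 FPKM in Rspo2-AAV, 93.0 to 327.4 in Control). By limma and by limma-voom, 0 endothelial, cholangiocyte, lymphocyte, acinar or hepatocyte markers were called (at an unadjusted p under 0.05, 9 of 10 acinar and 2 lymphocyte markers were higher and 3 hepatocyte and 1 cholangiocyte marker lower). For comparison, limma called 5.2% of all tested genes, and at that unadjusted p 10.3% were higher and 11.2% lower. Of 5 lymphocyte markers 2 were above the level tested, and the list summed to 12.6 to 151.0 FPKM in Rspo2-AAV and 8.64 to 23.7 in Control. No listed marker was at 0 in all libraries. The part of these differences in any result below was not tested, and in whole tissue fewer cells of a type and less RNA per cell cannot be told apart.

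The label of noncoding RNA holds for most members, but not all. RefSeq placed 265 of the 426 among lncRNAs, 16 among protein-coding genes, 2 among pseudogenes and 2 among transcribed pseudogenes, and 141 had no match. The 16 include Ifi30 (a lysosomal thiol reductase) and Cct6a (a subunit of the cytosolic chaperonin), both among the 10 most abundant members. In the GENCODE annotation, 150 members share exon bases with exons of a coding gene, and in 17 of them over 50% of exon bases are shared. Strand use in counting is not given in the sources used here, so for these genes, reads of the member and of its partner cannot be told apart. Of the 196 members that overlap a coding gene on the opposite strand, 142 share exon bases. With or without shared exon bases, reads from introns of the partner could also fall on exons of an overlapping member. Their part was not tested.

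For 4 antisense members whose coding partner changed with them, a stretch of the transcript is shown from GENCODE M21 (GRCm38), 5′ to 3′, in which capitals mark bases that lie opposite a coding exon of the partner. Without strand, reads in the capitals could come from either gene of the pair, and whether or how they were counted is not given. Gm15883 lies opposite Cyp2f2, shown at chr7:27124804-27124903, minus strand. Gm15690 lies opposite Sds, shown at chr5:120480757-120480856, minus strand. Notumos lies opposite Notum, shown at chr11:120659945-120660044, plus strand. Gm15622 lies opposite Bhmt, shown at chr13:93627316-93627415, plus strand.
Gm15883: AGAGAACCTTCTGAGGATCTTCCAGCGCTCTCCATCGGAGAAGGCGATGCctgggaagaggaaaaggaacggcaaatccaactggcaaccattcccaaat
Gm15690: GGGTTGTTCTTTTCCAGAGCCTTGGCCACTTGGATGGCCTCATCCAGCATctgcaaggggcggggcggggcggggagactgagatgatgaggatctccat
Notumos: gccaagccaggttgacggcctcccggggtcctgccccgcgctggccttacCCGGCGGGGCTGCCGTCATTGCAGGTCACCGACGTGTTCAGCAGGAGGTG
Gm15622: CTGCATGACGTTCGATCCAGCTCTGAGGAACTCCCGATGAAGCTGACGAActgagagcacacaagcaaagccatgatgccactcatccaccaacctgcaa

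Most members were expressed at low levels. The median member averaged 2.16 FPKM over the 12 libraries; 192 members lay between 1 and 2 FPKM and 43 at or above 10 FPKM. The deposited gene length was 1098 bases in the median member and 4132 bases in the median of the 9819 autosomal coding genes that reach 1 FPKM on average, so 1 FPKM of a member rests on fewer reads. The SD between libraries of a group was 0.43 on the log2 scale in the median member and 0.26 in the median coding gene. With both sets limited to a mean of 1 to 5 FPKM it was 0.42 and 0.26. Members were above 0 in all 12 libraries for 408 of 426. Closest above the threshold were Gm11827 at 1.01, Gm45820 at 1.0102 and B430219N15Rik at 1.0139 FPKM, and closest below it were Gm28876 at 0.9975, Gm16116 at 0.9956 and Gm11837 at 0.9955 FPKM.

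The 10 most abundant members held 40.7% to 56.8% of all member reads in Rspo2-AAV libraries and 36.2% to 43.3% in Control libraries. All members together took 0.481% to 0.61% of reads in Rspo2-AAV libraries and 0.421% to 0.477% in Control libraries, and these shares did not overlap between the groups. By FPKM the groups did overlap, as the members summed to 1951.1 to 2663.3 in Rspo2-AAV and 1947.0 to 2306.2 in Control libraries. BC024386 (chromosome 7, 140906014 to 140907983, plus strand) led with 153.8 ± 59.0 FPKM in Rspo2-AAV and 163.0 ± 22.3 in Control (SD, n = 6 each; log2 change -0.15, adjusted p = 0.734), and its highest and lowest libraries were both in the Rspo2-AAV group. Among numbers 4 to 7 alone BC024386 passed the test, lower in Rspo2-AAV (-0.54, adjusted p = 0.044), while without Rspo2-AAV 4 and 5 its change was 0.02 (adjusted p = 0.971). AW112010, an interferon-inducible RNA of immune cells, averaged 66.7 ± 12.5 FPKM in Rspo2-AAV and 93.6 ± 14.3 in Control (SD, n = 6 each; log2 change -0.49, adjusted p = 0.0692). AW112010 passed the test among numbers 4 to 7 alone (-0.52, adjusted p = 0.0487), without the 3 libraries that hold Xist (-0.66, adjusted p = 0.0177), without Rspo2-AAV 1 (-0.55, adjusted p = 0.0486) and without Rspo2-AAV 2 (-0.54, adjusted p = 0.0497). Its values overlapped between the groups, and the Kupffer and macrophage markers given above were lower in the same libraries; their part was not tested. Malat1 (chromosome 19, 5795690 to 5802672, minus strand) had a lowest, median and highest level of 55.9, 89.0 and 131.9 FPKM in Rspo2-AAV and 36.4, 55.5 and 100.8 in Control. It did not pass the test (log2 change 0.51 ± 0.28, SE; adjusted p = 0.314). Gm26917, a locus known to collect ribosomal RNA reads, ranged from 19.3 to 104.8 FPKM in Rspo2-AAV and from 21.5 to 72.3 in Control. Gm10076, a pseudogene by RefSeq, spanned 19.4 to 111.5 FPKM in Rspo2-AAV and 12.1 to 182.1 in Control, a spread as wide within groups as between them. 0610005C13Rik, which overlaps Bcat2 on the opposite strand, averaged 51.3 ± 12.6 FPKM in Rspo2-AAV and 47.2 ± 4.29 in Control (SD, n = 6 each), with an adjusted p of 0.763. Ifi30 averaged 33.5 ± 7.87 FPKM in Rspo2-AAV and 42.1 ± 8.82 in Control, with an adjusted p of 0.311 (SD, n = 6 each here and below). Cct6a averaged 30.9 ± 2.6 FPKM in Rspo2-AAV and 31.7 ± 7.12 in Control (adjusted p = 0.969). 1810019D21Rik, which overlaps the splicing factor gene Esrp2 on the opposite strand, averaged 33.3 ± 5.24 FPKM in Rspo2-AAV and 27.6 ± 7.19 in Control (log2 change 0.29, adjusted p = 0.361), and among numbers 4 to 7 alone it passed the test (0.64, adjusted p = 0.0215). Their groups overlapped, and the 1 gene of the 10 that passed the test was Neat1.

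Neat1 rose in Rspo2-AAV livers. Neat1 (chromosome 19, 5824708 to 5845478, minus strand) stood at 26.3, 36.4, 49.2, 79.5, 69.8 and 48.6 FPKM in Rspo2-AAV 1, 2, 4, 5, 6 and 7, against 14.9, 17.6, 32.4, 19.1, 27.1 and 24.7 FPKM in Control 1 to 6. All Rspo2-AAV libraries but number 1 lay above every Control library, and Rspo2-AAV 1 lay within the Control range. Its log2 change was 1.13 ± 0.27 (SE), with an adjusted p of 0.0303 by limma and 4109 to 25121 reads per library. The call was lost when any 1 of Control 2, 4 and 6 or Rspo2-AAV 4, 5, 6 and 7 was left out, at a log2 change of 0.98 to 1.16 and an adjusted p of at most 0.0764. It was also lost when each library was rescaled to the same sum of FPKM (adjusted p = 0.0641) and without Rspo2-AAV 4 and 5 (0.94, adjusted p = 0.129). Its upstream coding neighbour Frmd8 did not pass the test (6.18 ± 0.947 FPKM in Rspo2-AAV and 6.42 ± 1.35 in Control, SD, n = 6 each; adjusted p = 0.915).

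**Figure D1:**
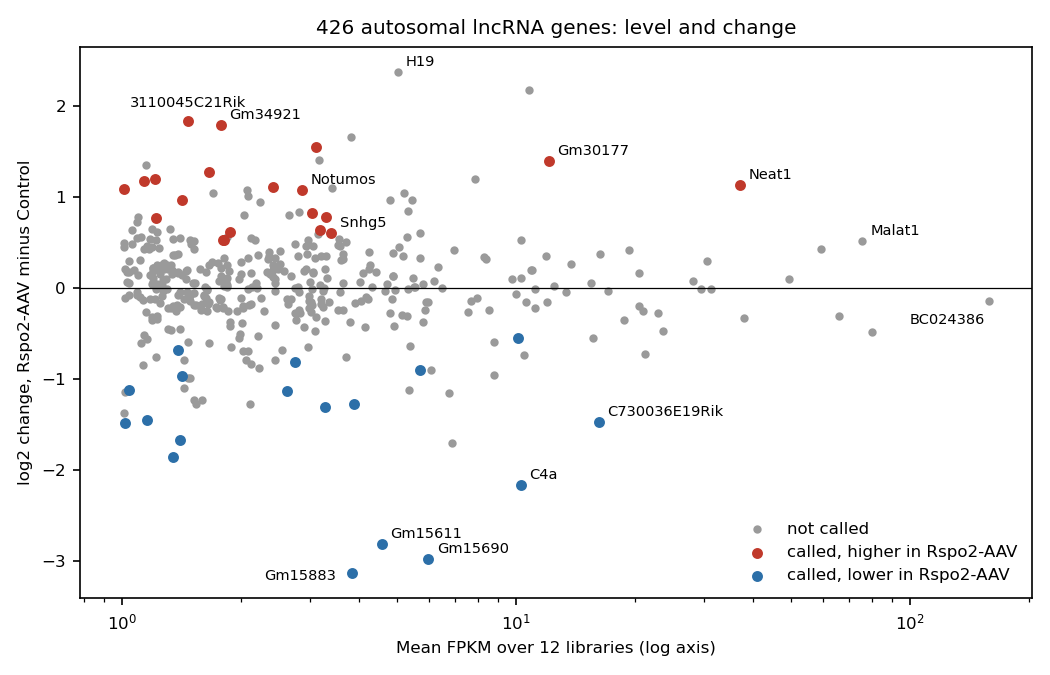
Each point is 1 of the 426 lncRNA genes; the x axis is its mean FPKM over 12 libraries on a log axis and the y axis its log2 change, Rspo2-AAV minus Control. Red points were called higher and blue points lower in Rspo2-AAV; Gm15883, Gm15690 and Gm15611 lie lowest, and H19, at 2.37, was not called.

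Across the list, 38 of 426 members changed between Rspo2-AAV and Control livers (8.92%): 20 rose (4.69%) and 18 fell (4.23%). Of all 13447 genes tested, 5.2% were called, with 2.55% higher and 2.65% lower, and of the autosomal coding genes 5.58%. The share among members is partly set by their choice, because 39 members reached 1 FPKM on average only in the Rspo2-AAV group and 27 only in Control. Of the 38 called members, 21 averaged at least 1 FPKM in both groups, as 360 of 426 members did; 8 that rose averaged under 1 FPKM in Control and 9 that fell under 1 FPKM in Rspo2-AAV. Changes of at least 2-fold passed the test in 24 members (5.63%) and in 2.14% of all tested genes, with 11 that rose (2.58% of members, 1.15% of all tested genes) and 13 that fell (3.05% of members, 0.989% of all tested genes). An unadjusted p under 0.05 was found for 114 members (26.8%), against 21.5% of all tested genes. The median log2 change over the members was 0.03, with quartiles of -0.22 and 0.32, beside 0.0, -0.18 and 0.19 over all tested genes, and 53.5% of members had a change above 0, against 50.4% of all tested genes.

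The 2 groups did not overlap for 17 members (3.99%; 3.24% of all tested genes), 10 higher (2.35%) and 7 lower (1.64%) in Rspo2-AAV, where 1.62% of all tested genes were higher and as many lower. Of these, Gm15675 (log2 change 0.48, adjusted p = 0.0505) and Gm16559 (1.10, adjusted p = 0.0603) missed the call. The number of calls depended on single libraries. Leaving out 1 library gave 19 calls without Control 2, 23 without Control 4, 25 without Control 5 and 20 without Control 6. It gave 17 without Rspo2-AAV 5, 18 without Rspo2-AAV 6 and 25 without Rspo2-AAV 7. The other 5 such fits gave 29 without Control 1, 55 without Control 3, 38 without Rspo2-AAV 1, 52 without Rspo2-AAV 2 and 26 without Rspo2-AAV 4. Calls numbered 88 without the 3 libraries that hold Xist, 36 of them among the 38, and 15 without Rspo2-AAV 4 and 5, 13 of them among the 38. Of the 38 calls, 17 held in all 12 fits that left out 1 library, and the members described below are mainly these.

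**Figure D2:**
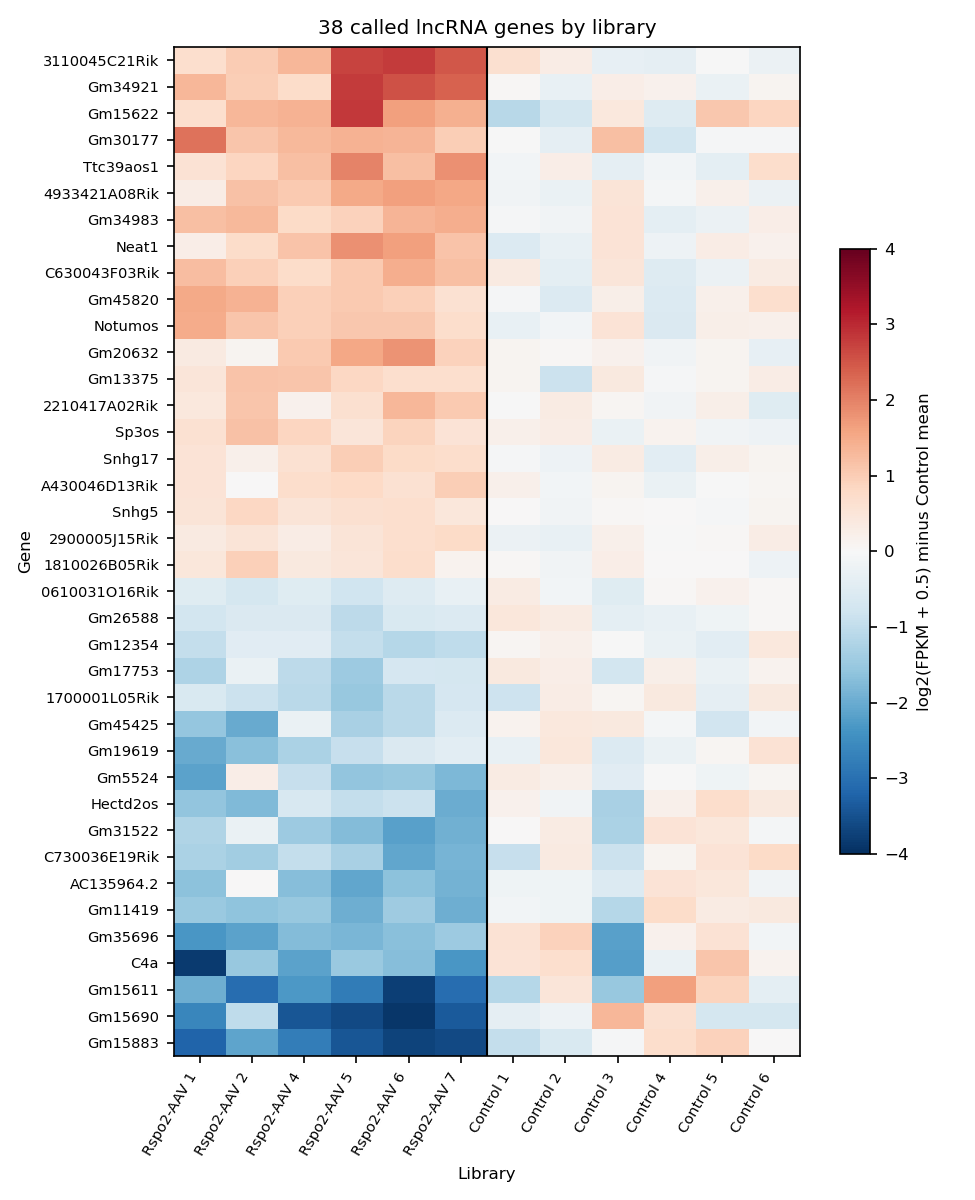
Rows are the 38 called lncRNA genes ordered by log2 change, columns are the 6 Rspo2-AAV libraries (left) and the 6 Control libraries (right), and colour is log2(FPKM + 0.5) minus the Control mean of the gene. The 20 genes that rose are at the top and the 18 that fell at the bottom. 3110045C21Rik and Gm34921 are redder in Rspo2-AAV 5, 6 and 7 than in the other Rspo2-AAV libraries.

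The largest fall was in Gm15883, opposite a periportal cytochrome P450 gene. Gm15883 (ENSMUSG00000086868, chromosome 7, 27124481 to 27130674, minus strand) lies wholly within the span of Cyp2f2 on the other strand, and 16.2% of its exon bases lie in exons of coding genes. Its level was 0.258, 1.12, 0.539, 0.156, 0.0406 and 0.0792 FPKM in Rspo2-AAV 1, 2, 4, 5, 6 and 7, against 3.17, 4.09, 6.25, 10.9, 12.8 and 6.57 FPKM in Control 1 to 6. The groups did not overlap, and the highest Rspo2-AAV value was in number 2. The log2 change was -3.14 ± 0.34 (SE, adjusted p = 0.000973), resting on 1 to 29 reads per Rspo2-AAV library and 71 to 355 per Control library. Cyp2f2 fell with it, to 22.3 ± 34.7 FPKM in Rspo2-AAV against 453.8 ± 122.0 in Control (SD, n = 6 each; log2 change -5.42 ± 0.69, adjusted p = 0.00158). Rspo2-AAV 2 was also the highest Rspo2-AAV library for Cyp2f2, at 90.9 FPKM.

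Gm15690 (ENSMUSG00000086165, chromosome 5, 120479842 to 120480903, minus strand) lies within the span of Sds, which encodes serine dehydratase, an enzyme that feeds serine into gluconeogenesis. It stood at 1.1, 4.37, 0.422, 0.304, 0.159 and 0.465 FPKM in Rspo2-AAV 1, 2, 4, 5, 6 and 7, against 7.16, 8.07, 24, 14.7, 5.55 and 5.55 FPKM in Control 1 to 6. Rspo2-AAV 2 was again the highest of its group, yet it lay below every Control library. Gm15690 had a log2 change of -2.98 ± 0.48 (SE, adjusted p = 0.00484). Sds itself fell by 3.30 on the log2 scale (adjusted p = 0.017), with a lowest, median and highest level of 2.76, 7.16 and 111.9 FPKM in Rspo2-AAV and 76.8, 96.8 and 206.6 in Control. In Sds the groups overlapped through Rspo2-AAV 2. Of the exon bases of Gm15690, 32.6% lie in exons of coding genes, so part of its reads could belong to Sds. How many was not tested.

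Gm15611 (ENSMUSG00000084923, chromosome 5, 8998402 to 8999669, minus strand) lies 1078 bases upstream of Crot on the same strand and shares no exon base with it. Crot encodes the peroxisomal carnitine octanoyltransferase. Gm15611 was at 1.27, 0.321, 0.897, 0.486, 0.0 and 0.33 FPKM in Rspo2-AAV 1, 2, 4, 5, 6 and 7, against 2.6, 9.12, 1.89, 21, 12.2 and 4.75 FPKM in Control 1 to 6. The groups did not overlap, and the Control values varied widely among themselves. Gm15611 had a log2 change of -2.82 ± 0.50 (SE, adjusted p = 0.00749), with 0 to 13 reads per Rspo2-AAV library. Crot fell less, to 65.9 ± 25.3 FPKM in Rspo2-AAV against 133.3 ± 35.0 in Control (SD, n = 6 each; log2 change -1.05, adjusted p = 0.0303).

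A pair of overlapping lincRNA genes on chromosome 11 fell. Gm11419 (ENSMUSG00000084996, 81985406 to 81988769, plus strand) lies inside the span of Gm31522 (ENSMUSG00000109297, 81983119 to 82019967, minus strand). Gm11419 had a lowest, median and highest level of 0.193, 0.413 and 0.503 FPKM in Rspo2-AAV and 0.721, 2.44 and 4.01 in Control. The groups did not overlap, and Control 3 was the lowest Control library (log2 change -1.67 ± 0.26, SE; adjusted p = 0.00463; 2 to 8 reads per Rspo2-AAV library). Gm31522 had 0.0, 0.246 and 1.37 FPKM in Rspo2-AAV and 0.431, 2.03 and 2.78 in Control (log2 change -1.46, adjusted p = 0.0331). Its groups overlapped through Control 3. The call for Gm31522 was lost when any 1 of Control 2, 4, 5 and 6 or Rspo2-AAV 4, 5, 6 and 7 was left out, at -1.32 to -1.48 and an adjusted p of at most 0.08. The closest tested coding gene of Gm31522, Ccl2 (a chemokine that draws monocytes), did not pass the test (-0.33, adjusted p = 0.685), and Asic2, closest to Gm11419, was not above the level tested.

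C730036E19Rik was the most abundant lncRNA that fell. C730036E19Rik (ENSMUSG00000102095, chromosome 1, 151138034 to 151142345, plus strand) stood at 8.92, 8.15, 11.2, 8.65, 4.86 and 5.71 FPKM in Rspo2-AAV 1, 2, 4, 5, 6 and 7, against 11.4, 28.6, 12.1, 23.7, 32.8 and 38.1 FPKM in Control 1 to 6. Every Rspo2-AAV library lay below every Control library, with Control 1 and Control 3 the nearest. C730036E19Rik had a log2 change of -1.48 ± 0.31 (SE, adjusted p = 0.0159), with 78 to 804 reads per library. Gm12354 (chromosome 4, 19716732 to 19720199, minus strand) fell by less, to 1.84 ± 0.494 FPKM in Rspo2-AAV against 3.64 ± 0.878 in Control (SD, n = 6 each; log2 change -0.82 ± 0.17, SE; adjusted p = 0.0146). Its groups did not overlap either, and its call was lost among numbers 4 to 7 alone (-0.79, adjusted p = 0.07).

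Calls of the other members among the 12 falls with the smallest p were lost without single libraries, at log2 changes close to the full ones. AC135964.2 (chromosome 16, 86770227 to 86806513, minus strand) had 0.0, 0.16 and 1.61 FPKM as lowest, median and highest in Rspo2-AAV and 0.951, 1.4 and 2.54 in Control, and Rspo2-AAV 2 was the 1 library of its group inside the Control range. Its log2 change was -1.49 (adjusted p = 0.0194), and the call was lost without Rspo2-AAV 5 or Rspo2-AAV 6 (-1.37 to -1.46, adjusted p at most 0.0507). Gm35696 (chromosome 10, 121506623 to 121526101, plus strand) had 0.0, 0.226 and 0.413 FPKM in Rspo2-AAV and 0.0563, 2.8 and 4.25 in Control, with Control 3 the 1 Control library inside the Rspo2-AAV range. Its log2 change was -1.86 (adjusted p = 0.0273). The call was lost without any 1 of Control 2, 4, 5 and 6 or Rspo2-AAV 5 and 6 (-1.68 to -1.9, adjusted p at most 0.068) and by limma-voom on reads (-3.36, adjusted p = 0.135). Gm26588, opposite the monoacylglycerol lipase gene Mgll, averaged 0.94 ± 0.175 FPKM in Rspo2-AAV and 1.84 ± 0.546 in Control (SD, n = 6 each; log2 change -0.68, adjusted p = 0.029). Its groups did not overlap, yet the call was lost without any 1 of Control 2 and 6 or Rspo2-AAV 5 and 6 (-0.6 to -0.69, adjusted p at most 0.0745). 1700001L05Rik (chromosome 15, 83353847 to 83367282, minus strand) averaged 0.781 ± 0.275 FPKM in Rspo2-AAV and 2.06 ± 0.755 in Control (SD, n = 6 each; log2 change -0.97, adjusted p = 0.029). Its groups overlapped through Control 1, at 0.889, and the call was lost without any 1 of Control 2, 4 and 6 or Rspo2-AAV 4, 5 and 6 (-0.86 to -0.95, adjusted p at most 0.0745).

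C4a, listed here by its biotype, is a copy of the complement gene C4b and a transcribed pseudogene in RefSeq, so reads of the near-identical pair may be split between them and its value is uncertain. C4a (chromosome 17, 34809092 to 34823464, minus strand) stood at 0.53, 4.56, 2.78, 4.74, 3.98 and 2.39 FPKM in Rspo2-AAV 1, 2, 4, 5, 6 and 7, against 20.7, 22.6, 2.7, 11.7, 30.7 and 15.7 FPKM in Control 1 to 6. The lowest library of each group, Rspo2-AAV 1 and Control 3, also held Xist, and the groups overlapped through Control 3. C4a had a log2 change of -2.17 ± 0.53 (SE, adjusted p = 0.0343). The call was lost without any 1 of Control 1, 2, 4, 5 and 6 or Rspo2-AAV 4, 5, 6 and 7 (-1.95 to -2.31, adjusted p at most 0.0838), and it was -2.36 (adjusted p = 0.000682) without the 3 libraries that hold Xist.

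Notumos rose together with Notum, a direct feedback gene of Wnt signalling. Notum encodes a secreted enzyme that strips the lipid from Wnt proteins and so inactivates them. Notumos (ENSMUSG00000053613, chromosome 11, 120659157 to 120661815, plus strand) overlaps the start of Notum on the opposite strand, and 26.6% of its exon bases lie in exons of coding genes. It stood at 5.48, 4.09, 3.61, 4.01, 4.0 and 2.97 FPKM in Rspo2-AAV 1, 2, 4, 5, 6 and 7, against 1.22, 1.47, 2.57, 0.934, 1.99 and 1.96 FPKM in Control 1 to 6. Every Rspo2-AAV library lay above every Control library. Notumos had a log2 change of 1.07 ± 0.18 (SE, adjusted p = 0.00676), with 43 to 368 reads per library. Notum averaged 22.5 ± 4.14 FPKM in Rspo2-AAV and 11.8 ± 2.62 in Control (SD, n = 6 each; log2 change 0.92, adjusted p = 0.00749), also without overlap. Reads of the overlap cannot be assigned to either gene.

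A pair of lincRNA genes downstream of Dusp6 on chromosome 10 rose, and so did Dusp6. Dusp6 encodes the phosphatase that switches off ERK kinase. Gm34921 (ENSMUSG00000112384, 99267686 to 99270446, minus strand) lies 197 bases past the end of Dusp6 and runs towards it. It stood at 1.78, 1.3, 0.993, 5.8, 4.79 and 4.19 FPKM in Rspo2-AAV 1, 2, 4, 5, 6 and 7, against 0.429, 0.232, 0.584, 0.515, 0.251 and 0.482 FPKM in Control 1 to 6. Every Rspo2-AAV library lay above every Control library, and Rspo2-AAV 5, 6 and 7 lay above the other 3 (log2 change 1.79 ± 0.34, SE; adjusted p = 0.00971). Gm34983 (ENSMUSG00000112265, 99459689 to 99488610, plus strand) starts 196458 bases from the start of Dusp6. It stood at 1.81, 1.93, 1.2, 1.38, 2.04 and 2.23 FPKM in Rspo2-AAV 1, 2, 4, 5, 6 and 7, against 0.466, 0.404, 0.947, 0.256, 0.348 and 0.709 FPKM in Control 1 to 6. Its groups did not overlap, and its log2 change was 1.17 ± 0.18 (SE, adjusted p = 0.00364) on 4 to 37 reads per library. Dusp6 averaged 50.7 ± 10.1 FPKM in Rspo2-AAV and 25.7 ± 3.93 in Control (SD, n = 6 each; log2 change 0.95, adjusted p = 0.00465). Another lincRNA gene nearby, Gm48884, whose start is 25615 bases from that of Dusp6, had a log2 change of 0.65 that did not pass the test (adjusted p = 0.106).

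Of the 48 members that start within 2 kb of a coding gene's start and run away from it, 6 rose and 0 fell by limma, and by limma-voom likewise 6 and 0; at an unadjusted p under 0.05, 13 were higher and 3 lower. Of all tested genes, 10.3% were higher and 11.2% lower at that unadjusted p. Their median log2 change was 0.13, with quartiles of -0.05 and 0.47, beside 2.55% called higher and a median of 0.0 over all tested genes. C630043F03Rik (ENSMUSG00000084910, chromosome 4, 72201348 to 72215352, plus strand) starts 429 bases from Tle1, which encodes a Groucho corepressor that binds the Wnt effector TCF. It averaged 3.46 ± 0.66 FPKM in Rspo2-AAV and 1.39 ± 0.554 in Control (SD, n = 6 each), and the groups did not overlap (log2 change 1.11 ± 0.19, SE; adjusted p = 0.00716). Tle1 had a log2 change of 0.36 that did not pass the test (adjusted p = 0.26). 4933421A08Rik starts 121 bases from Mfsd2a, a transporter of lysophospholipids that carry omega-3 fatty acids. It averaged 1.9 ± 0.705 FPKM in Rspo2-AAV and 0.52 ± 0.232 in Control (SD, n = 6 each; log2 change 1.2 ± 0.23, SE; adjusted p = 0.00967), with Rspo2-AAV 1 (0.726) below Control 3 (0.936). Mfsd2a had 70.8 ± 24.8 FPKM in Rspo2-AAV and 39.7 ± 21.1 in Control (SD, n = 6 each; adjusted p = 0.115).

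Ttc39aos1 (ENSMUSG00000085873, chromosome 4, 109403794 to 109406155, minus strand) starts 468 bases from Ttc39a, a tetratricopeptide repeat gene. Its lowest, median and highest levels were 1.29, 2.25 and 4.21 FPKM in Rspo2-AAV and 0.411, 0.609 and 1.46 in Control. Rspo2-AAV 1 lay below Control 6, and the other Rspo2-AAV libraries lay above all Control libraries. The log2 change was 1.27 ± 0.26 (SE, adjusted p = 0.0146). Ttc39a rose with it (1.13, adjusted p = 0.0471), at 0.541 and 0.491 FPKM in Rspo2-AAV 1 and 2 and 1.73 to 2.82 in Rspo2-AAV 4 to 7, against 0.145 to 0.564 FPKM in Control libraries. Rspo2-AAV 1 and 2 lay within the Control range of Ttc39a. The other divergent members that rose were Gm13375 beside Arhgap21 (0.82, adjusted p = 0.0329), A430046D13Rik beside Myl6b (0.61, adjusted p = 0.035) and 2900005J15Rik beside Prkag2, a regulatory subunit of AMPK (0.52, adjusted p = 0.0359). Of the 12 fits that left out 1 library, Gm13375 lost its call in 6, A430046D13Rik in 8 and 2900005J15Rik in 7. Adjusted p-values of their partners were 0.775 for Arhgap21, 0.274 for Myl6b and 0.336 for Prkag2.

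Among antisense members, several rose where the partner did not pass the test. 3110045C21Rik (ENSMUSG00000097503, chromosome 1, 169969409 to 169972396, plus strand) overlaps the end of Ddr2, a collagen receptor gene, on the opposite strand. It stood at 0.698, 1.03, 1.39, 4.4, 4.72 and 3.71 FPKM in Rspo2-AAV 1, 2, 4, 5, 6 and 7, against 0.665, 0.432, 0.0965, 0.0912, 0.248 and 0.138 FPKM in Control 1 to 6. Rspo2-AAV 5, 6 and 7 stood well above the rest, while Rspo2-AAV 1 lay barely above Control 1 (log2 change 1.83 ± 0.37, SE; adjusted p = 0.015). Ddr2 had a log2 change of -0.41 (adjusted p = 0.115). Gm30177 (ENSMUSG00000114708, chromosome 13, 36727258 to 36729259, plus strand) overlaps Nrn1, which encodes neuritin, on the opposite strand and shares no exon base with it. It stood at 29.2, 13.9, 15.6, 16.8, 16.5 and 12.6 FPKM in Rspo2-AAV 1, 2, 4, 5, 6 and 7, against 5.99, 4.61, 14.7, 3.48, 5.96 and 5.95 FPKM in Control 1 to 6. Rspo2-AAV 1 and Control 3, both with Xist, were the highest of their groups, and Control 3 lay within the Rspo2-AAV range (log2 change 1.39 ± 0.28, SE; adjusted p = 0.0151). Nrn1 did not pass the test (0.42, adjusted p = 0.206).

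Sp3os (ENSMUSG00000063714, chromosome 2, 72979424 to 72988677, plus strand) overlaps the start of Sp3, a zinc finger transcription factor gene, on the opposite strand. It averaged 1.66 ± 0.405 FPKM in Rspo2-AAV and 0.768 ± 0.204 in Control (SD, n = 6 each), and every Rspo2-AAV library lay above every Control library (log2 change 0.77 ± 0.15, SE; adjusted p = 0.011). Sp3 had a log2 change of -0.23 (adjusted p = 0.276). Gm45820, within the span of Tom1 on the opposite strand, averaged 1.54 ± 0.466 FPKM in Rspo2-AAV and 0.485 ± 0.326 in Control (SD, n = 6 each; log2 change 1.08 ± 0.23, SE; adjusted p = 0.0163). It rests on 1 to 20 reads per library, and its call was lost among numbers 4 to 7 alone (0.78, adjusted p = 0.107). Without Rspo2-AAV 4 and 5, the calls of 4933421A08Rik, Ttc39aos1, 3110045C21Rik, Gm30177 and Gm45820 were lost at log2 changes of 1.16, 1.11, 1.74, 1.41 and 1.12.

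**Figure D3:**
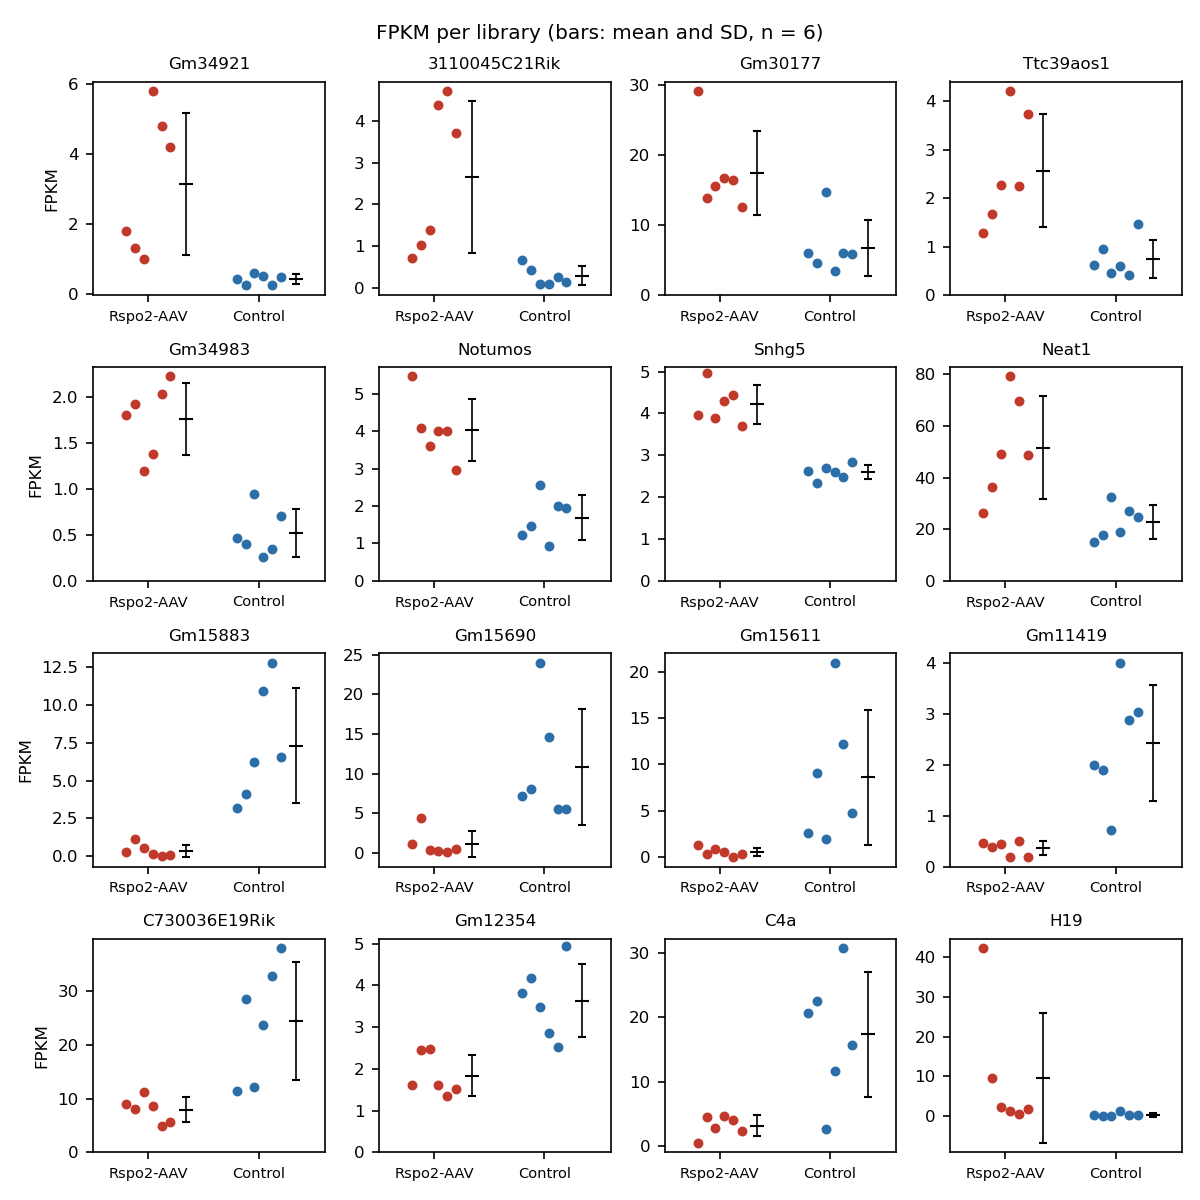
FPKM of 16 lncRNA genes, with 1 panel a gene, 6 Rspo2-AAV libraries in red on the left and 6 Control libraries in blue on the right; black bars are the mean and SD (n = 6) and each y axis has its own scale. Notumos and Snhg5 do not overlap between the groups, and H19 is high in 1 Rspo2-AAV library, at 42.1 FPKM.

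Of the called members, 11 of the 20 that rose and 6 of the 18 that fell had a promoter that could be examined. The others had none within the limit given next. RefSeq promoters (GRCm38.p6, 250 bases before to 50 after a start) were found for 236 of 426 members, and 203 of these start within 1000 bases of the deposited start. The motifs searched on both strands were CTTTGAT and TTCAAAG (letters of the TCF site of Wnt signalling), CACGTG (the E-box), TGANTCA (AP-1), TCACNCCAC (the sterol element), CAAAGTCCA (the HNF4 site), TTCNNNGAA (the STAT site) and AGGTCA (the nuclear receptor half-site). The motifs and the promoters shown were chosen after values were seen. The searched motifs may overlap each other. CTTTGAT was in 3.73% of all 32851 promoters, in 4.43% of the 203 member promoters, in 1 of 11 promoters of members that rose and in 1 of 6 of those that fell. TTCAAAG was in 5.14%, 4.93%, 1 of 11 and 0 of 6. CACGTG was in 7.15%, 11.33%, 2 of 11 and 1 of 6, and TGANTCA in 7.81%, 6.4%, 1 of 11 and 1 of 6. The other 4 motifs were in 1.24%, 0.47%, 8.3% and 16.26% of all promoters, in the order given above, and in 0 of the 17 promoters of called members. These matches are a description of letters in a window.

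The promoters of 4 divergent, antisense or lincRNA genes that rose and held a match, and of the most abundant gene that fell, are shown 5′ to 3′ on the gene's own strand, with capitals for motif matches. C630043F03Rik lies at chr4:72200994-72201293, plus strand, with its RefSeq start 104 bases before the deposited one, and its capitals are CTTTGAT read on the other strand. Gm34921 lies at chr10:99270850-99271149, minus strand, 453 bases before the deposited start, with TTCAAAG on the other strand. Ttc39aos1 lies at chr4:109406208-109406507, minus strand, 102 bases before it, with TGANTCA and then CACGTG. 3110045C21Rik lies at chr1:169969159-169969458, plus strand, at the deposited start, with CACGTG. C730036E19Rik lies at chr1:151137784-151138083, plus strand, at the deposited start, with no match.
C630043F03Rik: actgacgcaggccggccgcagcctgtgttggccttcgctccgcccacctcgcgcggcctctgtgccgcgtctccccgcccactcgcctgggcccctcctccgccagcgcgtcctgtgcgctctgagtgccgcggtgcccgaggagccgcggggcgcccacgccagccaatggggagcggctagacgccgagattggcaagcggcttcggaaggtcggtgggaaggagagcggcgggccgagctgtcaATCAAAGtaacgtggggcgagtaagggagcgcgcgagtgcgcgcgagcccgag
Gm34921: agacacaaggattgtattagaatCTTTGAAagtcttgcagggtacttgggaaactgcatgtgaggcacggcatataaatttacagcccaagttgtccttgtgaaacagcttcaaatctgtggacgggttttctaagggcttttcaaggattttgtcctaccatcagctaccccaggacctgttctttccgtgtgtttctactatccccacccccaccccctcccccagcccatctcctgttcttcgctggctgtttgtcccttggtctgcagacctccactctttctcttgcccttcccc
Ttc39aos1: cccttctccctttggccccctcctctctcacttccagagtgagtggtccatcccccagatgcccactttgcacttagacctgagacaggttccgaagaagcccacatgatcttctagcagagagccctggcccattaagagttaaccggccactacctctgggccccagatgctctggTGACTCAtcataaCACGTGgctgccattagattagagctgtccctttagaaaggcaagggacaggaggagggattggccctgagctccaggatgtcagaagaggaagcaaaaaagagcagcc
3110045C21Rik: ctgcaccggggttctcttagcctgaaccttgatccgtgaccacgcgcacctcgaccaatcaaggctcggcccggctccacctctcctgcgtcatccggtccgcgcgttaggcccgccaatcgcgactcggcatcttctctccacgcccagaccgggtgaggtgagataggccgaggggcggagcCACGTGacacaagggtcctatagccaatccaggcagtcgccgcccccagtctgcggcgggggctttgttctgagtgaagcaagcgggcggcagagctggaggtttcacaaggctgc
C730036E19Rik: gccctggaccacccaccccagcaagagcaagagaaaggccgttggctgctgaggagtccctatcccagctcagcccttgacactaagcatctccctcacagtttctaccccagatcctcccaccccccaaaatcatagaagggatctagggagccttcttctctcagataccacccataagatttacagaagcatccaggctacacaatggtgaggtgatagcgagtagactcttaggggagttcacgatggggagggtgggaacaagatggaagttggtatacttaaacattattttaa

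By position, members that overlap a coding gene on the opposite strand numbered 196, of which 7 rose (3.57%) and 5 fell (2.55%), near the 2.55% and 2.65% of all tested genes. Members with no overlap and no divergent partner numbered 170, of which 6 rose (3.53%) and 13 fell (7.65%), with a median log2 change of -0.03. Of the 12 on the same strand as an overlapping coding gene, 1 rose. By biotype, 9 of 167 antisense genes rose (5.39%) and 4 fell (2.4%), 5 of 182 lincRNA genes rose (2.75%) and 12 fell (6.59%), and 6 of 77 processed transcripts rose (7.79%) and 2 fell (2.6%). No test of a difference between these classes was made.

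Each member was paired with the coding gene it overlaps or, without one, with the coding gene whose start is nearest. Of the 38 called members, 33 had a partner above the level tested, and for 8 of them the partner was called as well (24.2%), each time in the same direction. Of 323 members that were not called, 20 had a called partner (6.19%), 17 of them with the same sign of change. Signs matched in 28 of the 33 pairs (84.8%) and in 202 of the 323 (62.5%). Across all 356 pairs the log2 changes had a Pearson correlation of 0.51, and 0.71 across the 33, as a description: the pairs share libraries, and overlapping pairs may share reads. Dusp6 stands in 2 of the 8 pairs. The number of pairs with both genes called was 5 to 12 over the fits that left out 1 library, 19 among numbers 4 to 7, 22 without the 3 libraries that hold Xist and 4 without Rspo2-AAV 4 and 5.

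The remaining pair joined Gm15622 and Bhmt. Bhmt encodes betaine-homocysteine methyltransferase, an abundant liver enzyme of methionine synthesis, and Gm15622 (chromosome 13, 93625382 to 93628633, plus strand) lies within its span on the opposite strand. Gm15622 stood at 2.08, 3.6, 3.73, 11, 4.6 and 3.84 FPKM in Rspo2-AAV 1, 2, 4, 5, 6 and 7, against 0.258, 0.484, 1.65, 0.636, 2.89 and 2.42 FPKM in Control 1 to 6. Rspo2-AAV 1 lay below Control 5 and 6, and the other 5 lay above all Control libraries. The log2 change was 1.55 ± 0.41 (SE, adjusted p = 0.0486), and the call was lost without any 1 of Control 1, 2, 4 and 6 or Rspo2-AAV 2, 4, 5, 6 and 7 (1.3 to 1.72, adjusted p at most 0.115) and by limma-voom (1.98, adjusted p = 0.051). Bhmt averaged 1391.3 ± 484.5 FPKM in Rspo2-AAV and 615.1 ± 162.3 in Control (SD, n = 6 each; log2 change 1.13, adjusted p = 0.0311), a level far above that of Gm15622. Of the exon bases of Gm15622, 12.8% lie in exons of coding genes.

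Elsewhere a coding gene changed and its lncRNA partner did not pass the test. These examples were chosen after their values were seen. Tbx3os1, beside the Wnt target gene Tbx3 (1.48, adjusted p = 0.00273), had a log2 change of 0.96 (adjusted p = 0.273). It stood at 15.2 and 15.6 FPKM in Rspo2-AAV 1 and 2 and at 1.6 to 5.1 in Rspo2-AAV 4 to 7, against 1.52 to 3.22 FPKM in Control libraries. Gm13775, beside the major urinary protein gene Mup19 (-4.43, adjusted p = 0.0334), had a log2 change of -1.16 (adjusted p = 0.14). Gm36041, closest to the vasopressin receptor gene Avpr1a (2.29, adjusted p = 0.00282), had a log2 change of -0.53 (adjusted p = 0.319).

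**Figure D4:**
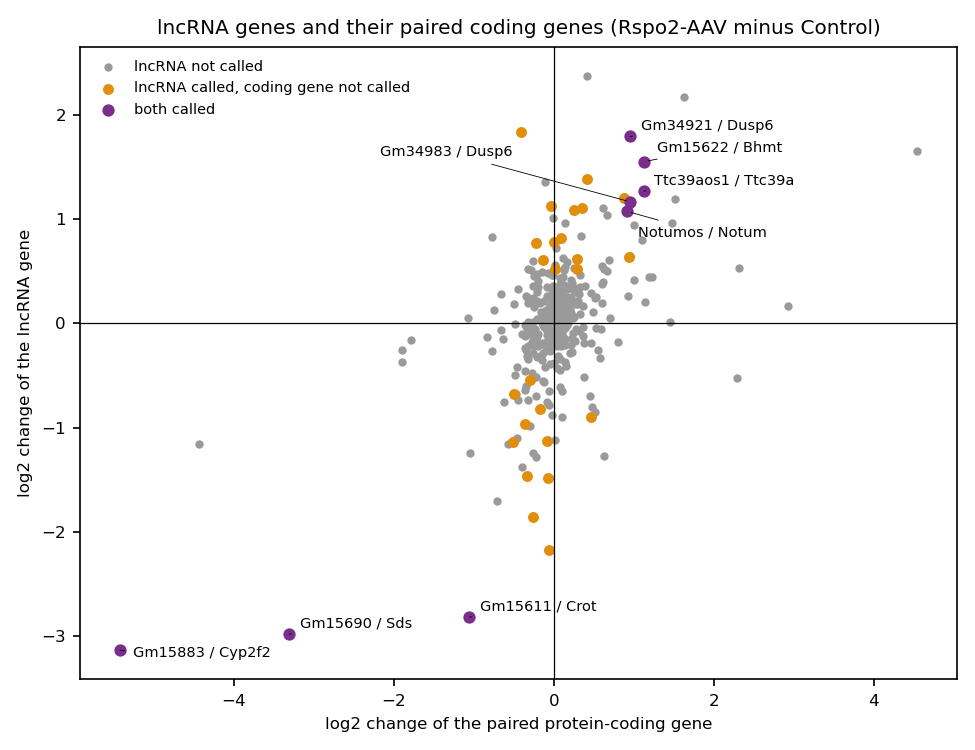
Each point is an lncRNA gene paired with a coding gene, 356 in all; the x axis is the log2 change of the coding gene and the y axis that of the lncRNA gene, both Rspo2-AAV minus Control. The 8 purple pairs have both genes called and lie at the upper right or lower left.

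Among the snoRNA host genes, 13 of the 20 listed were members, of which 2 rose and 0 fell by limma and by limma-voom (5 higher and 0 lower at an unadjusted p under 0.05). Of all tested genes, 2.55% were called higher, 10.3% were higher at an unadjusted p under 0.05, and 50.4% had a change above 0. The median log2 change of the hosts was 0.32, from -0.36 to 0.63, with 12 of 13 above 0; among numbers 4 to 7 alone Epb41l4aos and Snhg8 were at or under 0. Snhg5 (ENSMUSG00000097195, chromosome 9, 88521050 to 88522929, minus strand) stood at 3.96, 4.97, 3.9, 4.29, 4.45 and 3.71 FPKM in Rspo2-AAV 1, 2, 4, 5, 6 and 7, against 2.62, 2.33, 2.69, 2.6, 2.49 and 2.83 FPKM in Control 1 to 6. The values were narrow within each group and did not overlap (log2 change 0.60 ± 0.09, SE; adjusted p = 0.00273). Snhg17 averaged 3.97 ± 0.782 FPKM in Rspo2-AAV and 2.39 ± 0.542 in Control (SD, n = 6 each; log2 change 0.63 ± 0.15, SE; adjusted p = 0.0325). Its groups overlapped through Rspo2-AAV 2 and Control 3, and the call was lost without any 1 of Control 2, 4 and 6 or Rspo2-AAV 4, 5, 6 and 7 (0.55 to 0.65, adjusted p at most 0.0812) and with equal sums of FPKM (adjusted p = 0.165). The 3 most abundant hosts did not pass the test: Epb41l4aos (0.37, adjusted p = 0.456), Gas5 (0.19, adjusted p = 0.599) and Snhg8 (0.11, adjusted p = 0.863). In Rspo2-AAV 1 and 2, Epb41l4aos was at 27.0 and 36.2 FPKM, with 11 to 14.8 in Rspo2-AAV 4 to 7, against 11.1 to 16.0 FPKM in Control libraries. Gas5 averaged 11.9 ± 4.05 FPKM in Rspo2-AAV and 9.98 ± 1.45 in Control (SD, n = 6 each), with its highest value, 19.2, in Rspo2-AAV 2.

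H19, an imprinted RNA expressed from the maternal copy and abundant in fetal liver, had the largest positive log2 change of the named members, 2.37 ± 0.73 (SE), and did not pass the test (adjusted p = 0.0825). H19 (chromosome 7, 142575529 to 142578143, minus strand) stood at 42.1, 9.69, 2.32, 1.23, 0.642 and 1.88 FPKM in Rspo2-AAV 1, 2, 4, 5, 6 and 7, against 0.276, 0.0664, 0.178, 1.28, 0.258 and 0.233 FPKM in Control 1 to 6. The high values were in Rspo2-AAV 1 and 2, the 2 libraries of that group with Xist, while Control 3, which also held Xist, was at 0.178. It passed the test at a pseudocount of 0.1 (3.23, adjusted p = 0.0473), and also where numbers 1 to 3 and 4 to 7 were fitted as separate levels (2.59, adjusted p = 0.0423). Meg3, the other imprinted member, had 0.081 and 0.133 FPKM in Rspo2-AAV 1 and 2 and 0.769 to 2.6 in Rspo2-AAV 4 to 7, against 0.655 to 3.24 in Control libraries (log2 change -0.45, adjusted p = 0.611).

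Of the 5 microRNA host genes among the members, 0 were called by limma or limma-voom, and 1 was higher at an unadjusted p under 0.05. The limma shares over all tested genes were 5.2% called, 10.3% higher at that unadjusted p and 50.4% above 0. Counts in 5 genes cannot be told from such shares. Their median log2 change was 0.42, and 4 of 5 were above 0: H19, Mir142hg (0.46, adjusted p = 0.365), Mir17hg (0.42, adjusted p = 0.276) and Dleu2 (0.18, adjusted p = 0.541). Mir22hg averaged 17.6 ± 10.3 FPKM in Rspo2-AAV and 16.6 ± 4.11 in Control (SD, n = 6 each; adjusted p = 0.955). Among the abundant nuclear or broadly expressed lncRNAs, Neat1 rose, Tug1 (0.17, adjusted p = 0.295) and 2900097C17Rik (-0.26, adjusted p = 0.229) did not pass the test, and neither did Malat1. The median of the 4 was 0.34.

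Of 7 members listed for earlier descriptions in liver, 0 were called by limma or limma-voom, and 1 was higher and 1 lower at an unadjusted p under 0.05. By limma, 5.2% of all tested genes were called, and 10.3% were higher and 11.2% lower at that unadjusted p. Counts in 7 genes cannot be told from these shares. Under alternatives, 2 of the 7 passed the test at least once, H19 among them. In this list 1 (H19) had a positive log2 change, and the median was -0.16. Hnf4aos averaged 5.75 ± 2.37 FPKM in Rspo2-AAV and 6.08 ± 0.647 in Control (SD, n = 6 each; adjusted p = 0.726).

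**Figure D5:**
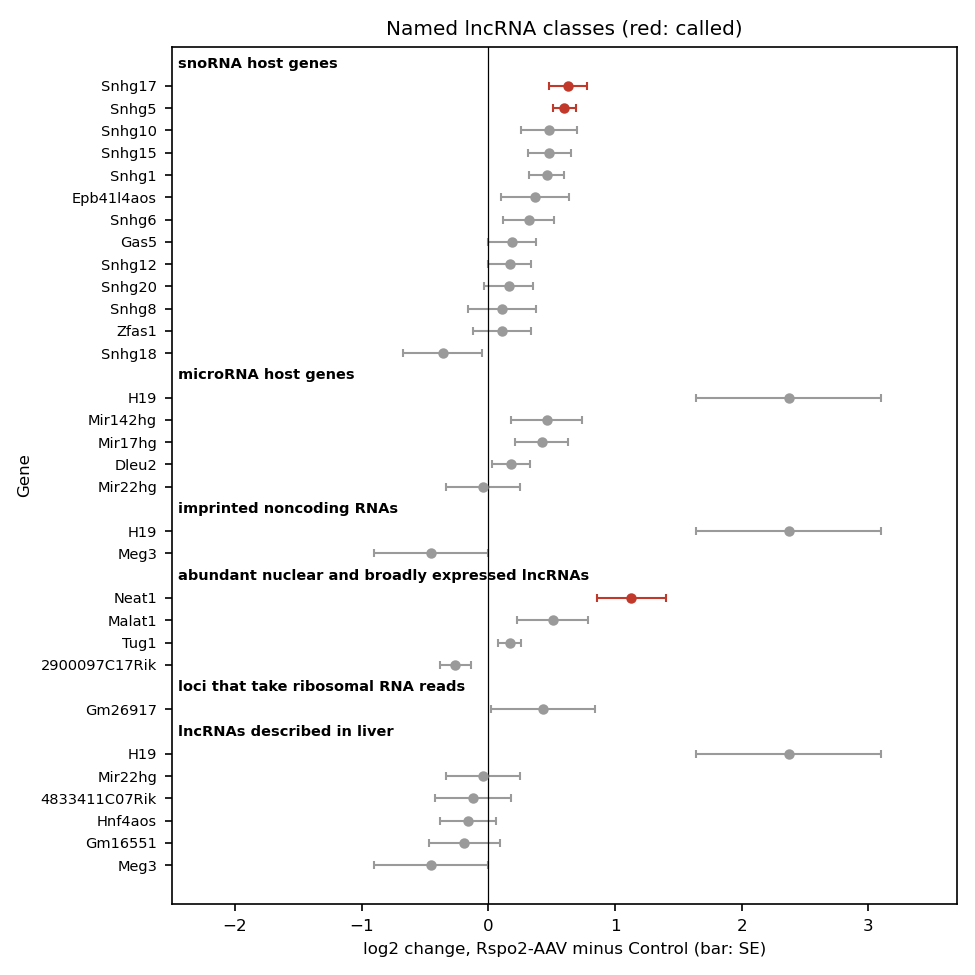
Log2 change, Rspo2-AAV minus Control, with its SE for members of 6 named lncRNA lists, with 1 row a gene; red points were called. Of the 13 snoRNA host genes 12 lie right of 0 and Snhg18, at -0.36, lies left; H19 appears in 3 lists. The liver list is drawn without 1 of its members.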

How the data were processed

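Poly-A selected RNA of 12 liver libraries (6 Rspo2-AAV, 6 Control) was sequenced. The authors deposited FPKM values per gene and a gene length column in bases. Tools named in the submitters' processing notes, without role or order, are DESeq2 1.20.0, HISAT2 2.0.5 and featureCounts 1.5.0-p3; the build is GRCm38 (mm10). The protocol in the labels names a directional and a non-directional library, so the strand setting of the counts is unknown.

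Genes of any biotype with a mean of at least 0.5 FPKM (13447) were fitted with limma 3.58.1 in R 4.3.3 (lmFit, eBayes with trend) on log2(FPKM + 0.5), two-sided, with Benjamini-Hochberg adjustment over all of them; genes under an adjusted p of 0.05 were called. Every adjusted p is from this test unless another is named. "Rose", "fell" and "changed" mark called genes. Fold changes on the log2(FPKM + 0.5) scale understate the change of low genes. The script was tested on simulated data. FPKM was multiplied by gene length and divided by a step fitted in each library, which gave whole reads within 0.01 for 100.0% of positive values. As an alternative, limma-voom was run on these reads with TMM factors, on which folds are larger for low genes. Reads are not independent molecules, so read numbers cover counting error only. Beyond limma-voom on these recovered reads, no count model was run, because the deposited values are FPKM. The voom test called 33 members.

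All 426 members were found in GENCODE M21, 98.1% with the same coordinates. Named members are the 12 with the smallest p in each direction, the 10 most abundant, the members of short lists (of longer lists, the called ones and the 3 most abundant), and 3 on each side of the threshold. The members, the lists and the alternatives were chosen with earlier results of these data known. Whether numbers shared between the groups pair the libraries is not given, and the fit as reported did not pair them. The values of 1 listed member are not reported here.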

Additional observations from a re-analysis of the deposited data

Results flagged for a closer look

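In groups of 6, a single library stood apart from the nearest other value by more than Dixon's critical share of the group's range of log2(FPKM + 0.5) in 10 of 94 groups of 47 named members. Chance gives about 1 in 20 for independent groups. The groups here share the same libraries, and many members were named for a small p, so no excess over chance can be read. Of these 10, 4 were in Control 3: Gm30177 at 14.7 FPKM and Tug1 at 5.19 FPKM were high, and Gm35696 at 0.0563 FPKM and Gm31522 at 0.431 FPKM were low. In Rspo2-AAV 1, Gm30177 was high at 29.2 FPKM and C4a was low at 0.53 FPKM. In Rspo2-AAV 2, AC135964.2 was high at 1.61 FPKM and Snhg8 was high at 25.9 FPKM. These 3 libraries hold 8 of the 10 values and are those with Xist. The other values were Gm26588, low at 0.608 FPKM in Rspo2-AAV 5, and H19, high at 1.28 FPKM in Control 4. The cause was not tested.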

How the results depend on the processing

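Of 1081 values of named members under alternatives, 955 kept their direction and side of the threshold, 88 kept the direction and lost the call, 10 gained one, and 28 changed sign, all of members called neither there nor in the fit as reported. The 38 called members (20 higher, 18 lower, 8 pairs with both genes called) became 17 (11, 6 and 5) with no filter on low values, 67 (37 lower, 19 pairs) among numbers 4 to 7, 88 (42, 46 and 22) without the 3 libraries with Xist, and 15 (8, 7 and 4) without Rspo2-AAV 4 and 5. Equal sums of FPKM gave 13 higher. Leaving out 1 library gave 17 to 55 calls, 11 to 32 higher, 6 to 29 lower and 5 to 12 pairs. The cause was not tested. With the replicate number as a block, 26 members were called (20 of the 38), 13 of them higher, with 4 pairs. Same-numbered libraries had correlations of deviations of -0.249, 0.0531, 0.0825, 0.0879 and 0.156, and 1 of 5 Rspo2-AAV libraries correlated best with its own number. So few correlations cannot settle whether the numbers pair the libraries, and Scd1 split by number in both groups. The median log2 change lay between 0.02 and 0.06 under all alternatives run. Of 426 members, 192 averaged 1 to 2 FPKM.
The sign changes were BC024386 (0.02), Cct6a (0.02), Mir22hg (0.24) and Hnf4aos (0.01) without Rspo2-AAV 4 and 5, and 0610005C13Rik (-0.05), Cct6a (0.23), Epb41l4aos (-0.0), Snhg8 (-0.08) and Meg3 (0.13) among numbers 4 to 7. Without the 3 libraries with Xist they were 0610005C13Rik (-0.04), Cct6a (0.02), Snhg8 (-0.17) and Meg3 (0.05), with a term for numbers Cct6a (0.01) and Mir22hg (0.05), and with the block Mir22hg (0.15). Leaving out each library in turn, the log2 change ran from -0.75 to 0.02 for Gm10076, from -0.02 to 0.16 for 0610005C13Rik, from -0.1 to 0.09 for Cct6a, from -0.16 to 0.19 for Snhg8 and from -0.28 to 0.08 for Mir22hg.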
